A study of Mus musculus with 6 samples.

Results

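The mRNA levels of 10 genes that store triglyceride in lipid droplets, or release and burn it, were followed in GC-2spd cells (a mouse spermatocyte line made immortal) under normal and low oxygen. The genes were chosen by name for their roles, with earlier results of these data known. They are the droplet coat genes Plin2, Plin3 and Plin4, the lipase gene Pnpla2 with its inhibitors Hilpda and G0s2, the triglyceride synthases Dgat1 and Dgat2, the mitochondrial entry enzyme Cpt1a and the fatty acid carrier Fabp3. All 10 are listed among the 43412 annotated genes of the tables, and 9 passed the filter for testing (a mean of at least 1 TPM over all libraries); Fabp3 did not. TPM expresses the transcripts of a gene as a share of all transcripts, per 1000000, and is scaled for transcript length. The 6 poly(A) RNA libraries are 3 of normoxic cells kept at 21% oxygen and 3 of hypoxia-treated cells kept at 1% oxygen, labelled as C57BL/6J in strain background. The study's methods give 48 h for hypoxic culture, and the labels give no time. The labels give no other treatment for these libraries. Neither source ties the libraries to cultures of their own, so p-values measure the spread between these libraries, which may be technical.

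Lipid droplets are stores of triglyceride and sterol esters wrapped in a phospholipid layer and a coat of perilipin proteins. Fatty acids enter the store through glycerolipid synthesis, whose last step is carried out by the DGAT enzymes, and leave it when ATGL, the product of Pnpla2, cuts the first fatty acid from triglyceride. HILPDA and G0S2 are small proteins that bind and inhibit ATGL, and freed fatty acids enter mitochondria for oxidation through CPT1. In hypoxia many cell types gather lipid droplets, and Hilpda and Plin2 are known as genes that hypoxia-inducible factors (HIFs) can switch on through DNA elements with the core ACGTG or GCGTG.

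To show where such cores lie at the members' starts, the 25 bases around each are printed, 5′ to 3′ on the gene's strand, with the core in capitals. Windows of 300 bases (250 before and 50 after the start) came from RefSeq on GRCm38.p6, and 8 of the 10 members matched; Dgat1 and Dgat2 did not. Both cores were searched on both strands.
Hilpda, 111 bases before its downstream start (chr6:29272505-29272529, +): accgcgagccGCGTGctttccgtga
Hilpda, 43 bases before the same start (chr6:29272573-29272597, +): tggccagcggACGTGccccagggcg
Hilpda, 8 bases before the same start (chr6:29272608-29272632, +): ggttcggtacGCGTGcgcagtctcc
Plin2, 86 bases before its start, core on the opposite strand (chr4:86670131-86670155, -): ttggggttccCACGCcctcatcccc
Plin2, 3 bases before its start (chr4:86670048-86670072, -): ctgggctatcACGTGgctcggaggc
G0s2, 142 bases before its start (chr1:193273316-193273340, -): cacagcagggGCGTGcactactcgt
Hilpda has 2 annotated starts, at 29272488 and 29272626, and the first of its cores lies at base 28 after the upstream start. The Plin2 site 3 bases before the start holds ACGTG on both strands, in overlap. No core was found in the windows of Plin3, Plin4, Pnpla2, Cpt1a and Fabp3. Of all 32851 RefSeq windows, 19.6% hold ACGTG, 32.4% hold GCGTG and 43.8% hold either, so a match is a description of these letters and not evidence of binding.

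The libraries held 5.75 to 6.72 gigabases of aligned sequence, calculated from the deposited coverage and FPKM. Counts were not among the values used, so no counting interval is given. Between 13551 and 13792 genes per library reached 1 TPM. Mitochondrially encoded genes held 9.03 to 9.12% of the TPM in normoxic and 5.20 to 5.45% in hypoxia-treated libraries. The labelled germ cell origin was not visible in marker genes: none of 5 germ cell, 6 meiotic spermatocyte and 6 spermatid markers reached a mean of 1 TPM, and each of these lists summed to at most 1.14 TPM in any library. The 6 adipocyte markers summed to at most 0.129 TPM. The fibroblast list, carried by the collagen genes Col1a1 and Col1a2, summed to 2270 to 2339 TPM in normoxic and 2699 to 2959 TPM in hypoxia-treated cells, while Pdgfra (4.31 to 5.84 against 1.32 to 1.76 TPM), Pdgfrb (6.39 to 6.79 against 1.33 to 1.67 TPM) and Dcn (0.330 to 0.838 against 0 to 0.251 TPM) were lower in hypoxia and Thy1 was at 0 in all libraries. The Sertoli list, mostly Clu, summed to 216 to 270 against 178 to 221 TPM, while its members Sox9 (5.84 to 6.89 against 13.0 to 13.8 TPM) and Wt1 (0.0181 to 0.0897 against 0.632 to 0.870 TPM) were higher in hypoxia. The steroidogenic list, with Insl3 as its highest member, summed to 3.61 to 6.88 against 7.17 to 10.6 TPM. In normoxic library 3, Insl3 (1.609 TPM) was close to Star (1.601 TPM). The member Cyp11a1 of that list was lower in hypoxia (0.350 to 1.18 against 0.0354 to 0.0801 TPM). The macrophage list, mostly Cd68 (5.985 to 7.205 against 8.833 to 10.49 TPM), summed to 7.20 to 8.11 against 10.5 to 11.5 TPM. Its members Adgre1, Ptprc and Lyz2 were at 0 in all libraries. The part of these lists in the results below was not tested.

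Among the 9 tested members, the ATGL inhibitor gene Hilpda rose in hypoxia-treated cells, and 5 fell: Pnpla2, G0s2, Dgat1, Dgat2 and Cpt1a. Plin2, Plin3 and Plin4 were not called. G0s2 passed the filter only through its normoxic values, as its hypoxic mean was 0.689 TPM. The test was limma on log2(TPM + 1) across all 13749 genes that passed the filter, with a Benjamini-Hochberg adjusted p under 0.05 as the call. The called members make 11.1% of the tested members higher and 55.6% lower, beside 17.9% higher and 36.1% lower among all genes tested. The 3 hypoxic and 3 normoxic values did not overlap in 8 of 9 members (88.9%), beside 62.4% of all genes. The median log2 fold change of the members was -0.33, beside -0.13 for all genes. As the members were chosen with earlier results of these data known, these shares and medians are descriptions. Since these are bulk libraries and TPM is a share of all transcripts, fewer cells of a type and less RNA per cell cannot be told apart.

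**Figure D1:**
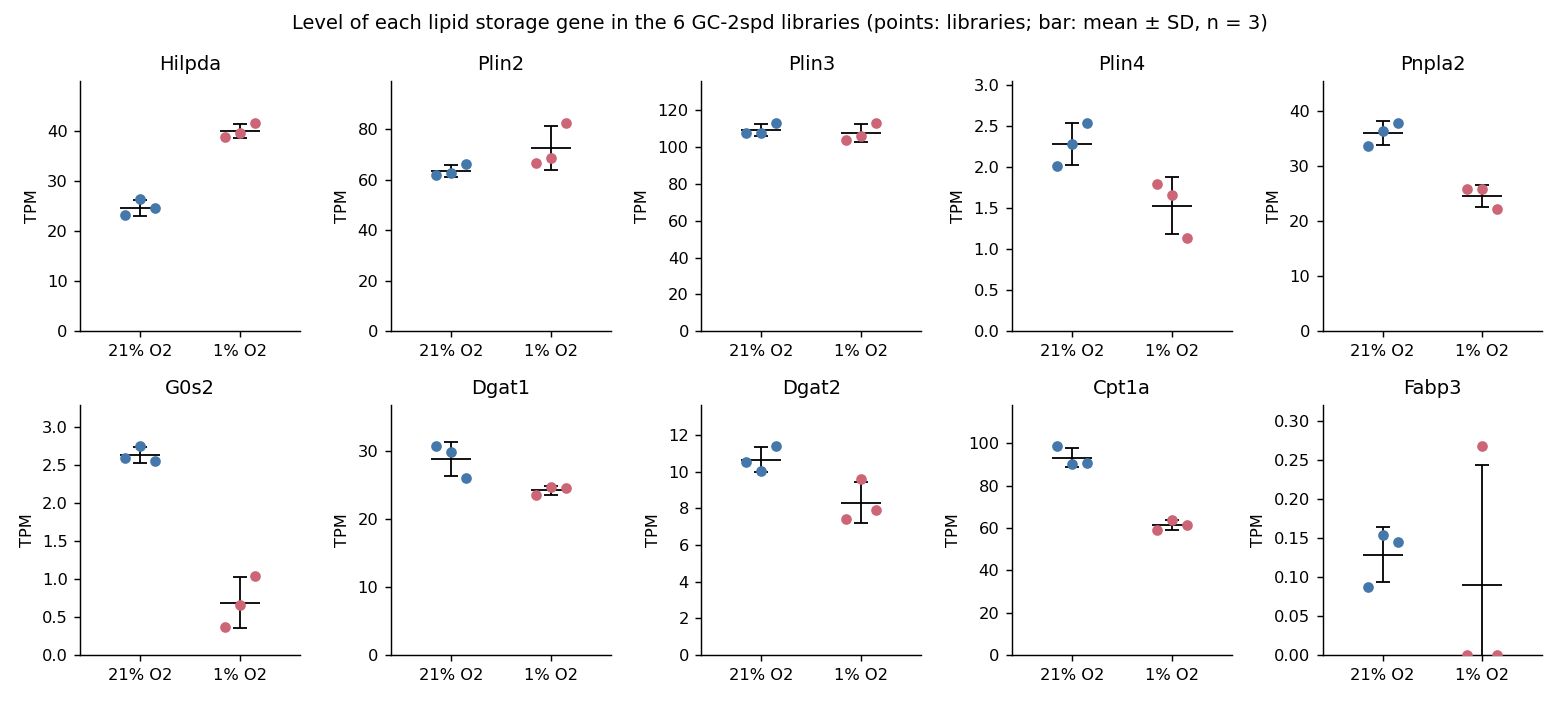
TPM (linear axis from 0) of each of the 10 genes in the 3 libraries at 21% oxygen and the 3 at 1% oxygen; points are libraries, the bar is the mean and the whiskers are the SD. Hilpda moved from a mean of 24.6 to 40.0 TPM and Cpt1a from 93.4 to 61.6 TPM, while the values of Plin3 and Fabp3 overlap between the groups.

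Hilpda encodes the hypoxia-inducible droplet protein that inhibits ATGL. The gene (ENSMUSG00000043421, mm10 chromosome 6, 29272488 to 29275446, plus strand, 2 annotated transcripts) measured 23.1, 26.3 and 24.5 TPM in normoxic libraries 1 to 3 and 38.8, 39.5 and 41.6 TPM in hypoxia-treated libraries 1 to 3. Every hypoxic library was above every normoxic one. The means were 24.6 ± 1.61 and 40.0 ± 1.44 TPM (SD, n = 3), a ratio of 1.62. The log2 fold change was 0.68 (95% interval 0.52 to 0.83, adjusted p = 0.000214 from limma).

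The size of the Hilpda change differed between the measures in the tables. The deposited coverage, the mean read depth over the gene, was 3.25, 3.75 and 3.35 per aligned gigabase in the normoxic libraries and 14.1, 14.2 and 14.2 in the hypoxia-treated ones. That is a ratio of 4.10, against 1.62 for TPM. On log2(coverage per gigabase + 1), a scale chosen after the data were seen, the fold change was 1.77 (adjusted p = 1.04e-06 from limma). Coverage over FPKM, set relative to its most frequent value in the library, was 0.339 to 0.351 for Hilpda in normoxic and 0.891 to 0.919 in hypoxia-treated libraries. The same quantity moved far less in the other members: for Plin2 its mean was 0.593 in normoxia and 0.576 in hypoxia, for Pnpla2 0.720 and 0.729, and for Dgat1 0.731 and 0.767. For Plin3, Plin4, G0s2, Dgat2 and Cpt1a it was 1 in both groups.

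The locus that the authors' software assembled from the reads gave a further value. It measured 22.9, 26.8 and 24.4 TPM in normoxic and 22.1, 29.5 and 32.1 TPM in hypoxia-treated libraries. These groups overlap, and the call was lost (log2 fold change 0.16, adjusted p = 0.378 from limma, also chosen after the data were seen). The assembled locus ended at the annotated end, 29275446, in all 3 normoxic libraries. In hypoxia-treated libraries 1 to 3 it ran 18.9, 16.0 and 15.8 kilobases past that end. It began at the downstream start, 29272626, in 5 of the 6 libraries, which is the start that follows the 3 printed cores, and at 29272488 in normoxic library 2. The longer locus spans Fam71f2 (ENSMUSG00000079652, chromosome 6, 29279593 to 29290680, plus strand), the next gene downstream, named after its values were seen. Fam71f2 measured 0.394, 0.487 and 0.630 TPM in normoxic and 4.16, 5.08 and 4.74 TPM in hypoxia-treated libraries (log2 fold change 1.91, adjusted p = 6.31e-05 from limma). With a normoxic mean of 0.504 TPM, Fam71f2 passed the filter only through its hypoxic values. Hilpda therefore was higher in hypoxia by annotated TPM and by coverage, and not called by the assembled locus. The cause of the difference between the measures was not tested.

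**Figure D2:**
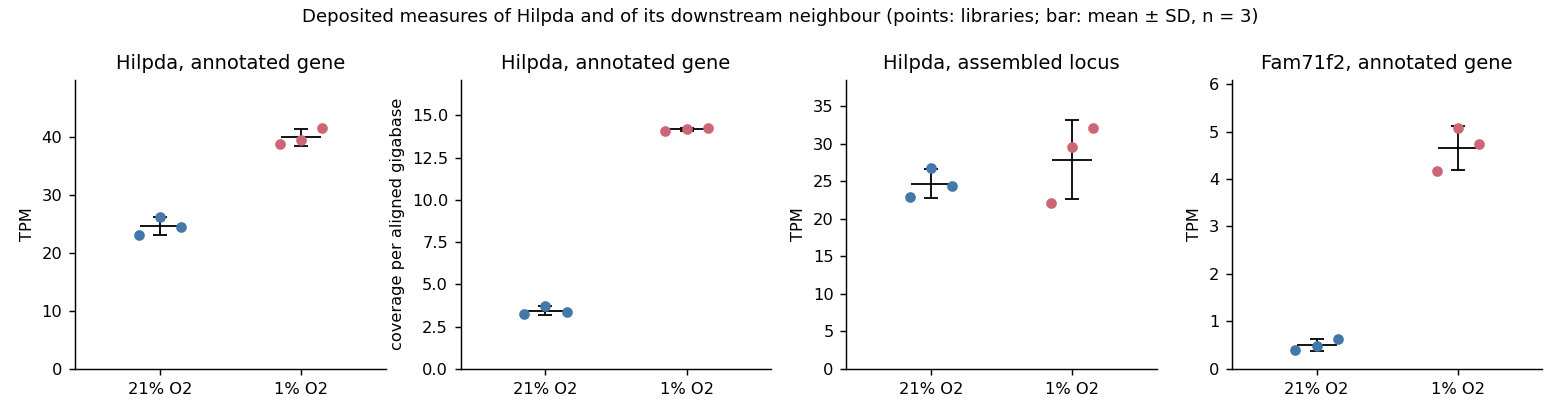
Annotated TPM, coverage per aligned gigabase and assembled-locus TPM of Hilpda, and annotated TPM of Fam71f2, by oxygen level (linear axes from 0); points are libraries, the bar is the mean and the whiskers are the SD of 3 libraries. The groups are apart in annotated TPM and coverage of Hilpda and in Fam71f2, and overlap in the assembled-locus TPM of Hilpda.

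G0s2, the G0/G1 switch gene and the other inhibitor of ATGL, moved in the opposite direction to Hilpda. The gene (ENSMUSG00000009633, chromosome 1, 193272161 to 193273217, minus strand) measured 2.59, 2.74 and 2.55 TPM in normoxic and 0.371, 0.657 and 1.04 TPM in hypoxia-treated libraries. All hypoxic values were below all normoxic ones, although they spread more widely. Its mean was 3.81-fold lower in hypoxia, and its log2 fold change was -1.12 (95% interval -1.55 to -0.69, adjusted p = 0.00198 from limma), which the added 1 TPM shrinks at this low level. With means of 2.63 TPM in normoxia and 0.689 TPM in hypoxia, G0s2 passed the filter only through its normoxic values. No locus was assembled for it in hypoxia-treated library 1. G0s2 lies wholly inside the interval of Lamb3 on the opposite strand, with no shared exon. Lamb3, which encodes a laminin chain, stood at 39.2, 36.9 and 32.7 TPM in normoxic and 84.2, 97.7 and 91.5 TPM in hypoxia-treated libraries. The sources used here do not say whether reads were assigned by strand, and the part of Lamb3 reads in the G0s2 values was not tested.

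Pnpla2 encodes ATGL, the lipase that both proteins inhibit. The gene (ENSMUSG00000025509, chromosome 7, 141455198 to 141460743, plus strand) measured 33.8, 36.5 and 38.0 TPM in normoxic and 25.8, 25.8 and 22.2 TPM in hypoxia-treated libraries. The groups did not overlap. Its mean was 1.47-fold lower in hypoxia, with a log2 fold change of -0.54 (95% interval -0.73 to -0.34, adjusted p = 0.00146 from limma).

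The ratio of inhibitor to lipase mRNA was taken within each library as a description, with no test. Hilpda over Pnpla2 was 0.683, 0.720 and 0.647 in normoxic and 1.502, 1.53 and 1.87 in hypoxia-treated libraries, so that annotated Hilpda TPM went from below to above that of Pnpla2. With the assembled locus in place of the annotated Hilpda value the ratios were 0.677, 0.733 and 0.642 against 0.854, 1.14 and 1.45, apart as well but closer, and hypoxia-treated library 1 stayed below 1. With coverage for both genes they were 0.322, 0.354 and 0.308 against 1.90, 1.93 and 2.26, farther apart than by TPM. G0s2 over Pnpla2 went from a mean of 0.073 ± 0.00508 to 0.0289 ± 0.0165 (SD, n = 3). Hilpda and G0s2 together, over Pnpla2, went from 0.756 ± 0.0405 to 1.66 ± 0.222 (SD, n = 3), and Hilpda made up most of that sum in both groups.

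**Figure D3:**
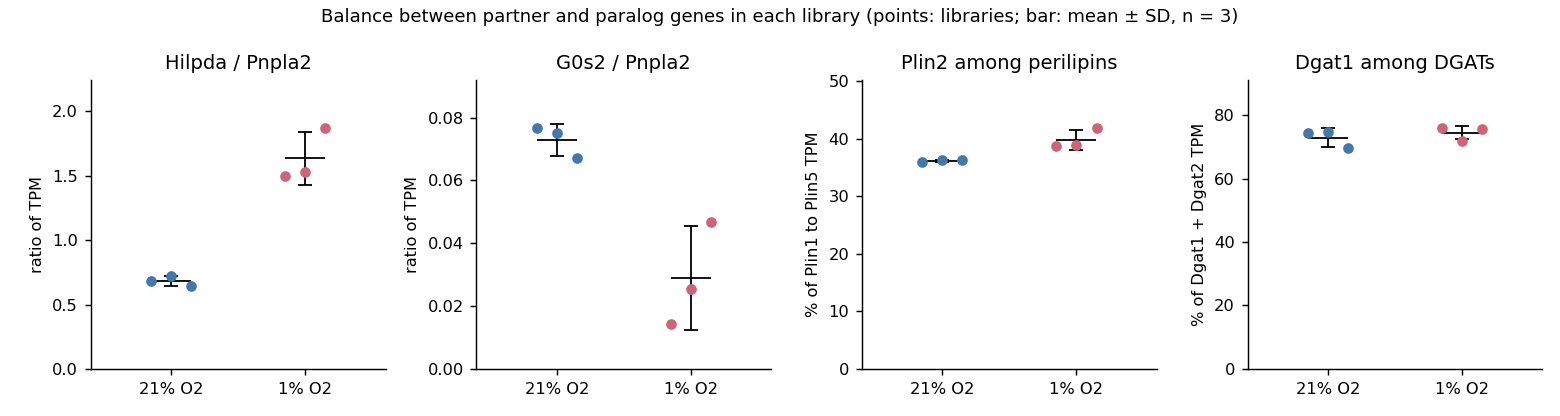
Ratios of annotated TPM (Hilpda or G0s2 over Pnpla2) and percentages of summed TPM (Plin2 among Plin1 to Plin5, Dgat1 among both DGAT genes) in each library, by oxygen level, on linear axes from 0; points are libraries, the bar is the mean and the whiskers are the SD. Hilpda over Pnpla2 lies between 0.647 and 0.720 in normoxia and between 1.502 and 1.87 in hypoxia, while the Dgat1 percentages overlap.

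Of the droplet coat genes, none was called. Plin2, whose product coats droplets in most cell types and is degraded when not bound to them, had values that were higher in every hypoxic library. The gene (ENSMUSG00000028494, chromosome 4, 86648386 to 86670060, minus strand) measured 61.7, 62.6 and 66.1 TPM in normoxic and 66.8, 68.6 and 82.5 TPM in hypoxia-treated libraries. The groups were apart only narrowly, at 66.8 against 66.1 TPM, and hypoxia-treated library 3 stood above the others. The log2 fold change was 0.19 (95% interval -0.02 to 0.39, adjusted p = 0.109 from limma). Under median-ratio scaling, which sets the typical gene to no change, it was 0.33 (adjusted p = 0.01 from limma) and after quantile normalization 0.28 (adjusted p = 0.0162 from limma), both called. It was smaller and not called without hypoxia-treated library 3 (0.09, adjusted p = 0.206 from limma), on coverage per aligned gigabase (0.09, adjusted p = 0.121 from limma) and without mitochondrially encoded genes (0.13, adjusted p = 0.245 from limma).

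Plin3, whose product is cytosolic and moves to newly forming droplets, was the most abundant member in both groups. The gene (ENSMUSG00000024197, chromosome 17, 56278962 to 56290511, minus strand) measured 107.8, 107.6 and 113.3 TPM in normoxic and 103.8, 106.1 and 113.2 TPM in hypoxia-treated libraries. The groups overlapped. The log2 fold change was -0.03 (95% interval -0.14 to 0.09, adjusted p = 0.691 from limma) and turned to 0.12 with median-ratio scaling (adjusted p = 0.0459 from limma).

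Plin4, a perilipin best known from fat and muscle, was low. The gene (ENSMUSG00000002831, chromosome 17, 56100591 to 56109803, minus strand) measured 2.02, 2.29 and 2.54 TPM in normoxic and 1.80, 1.67 and 1.14 TPM in hypoxia-treated libraries, with no overlap. Its log2 fold change of -0.38 (95% interval -0.76 to -0.01, adjusted p = 0.0801 from limma) was not called. The call was made without the variance trend (adjusted p = 0.0412 from limma) and on coverage per aligned gigabase (log2 fold change -0.27, adjusted p = 0.0251 from limma). Its end shares 17 exon bases with Hdgfl2 on the other strand.

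Plin1 and Plin5, the perilipins of fat cells and of oxidative tissues, were at or near 0 and were not tested. The 5 perilipin genes summed to 175 ± 5.75 TPM in normoxic and 182 ± 13.2 TPM in hypoxia-treated cells (SD, n = 3). Plin2 held 36.0, 36.3 and 36.3% of that sum in normoxic and 38.7, 38.9 and 41.9% in hypoxia-treated libraries. Plin3 held the larger share in all 6 libraries, with a mean of 62.5% in normoxia and 59.3% in hypoxia, and Plin4 held 1.30% and 0.855%.

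The triglyceride synthases catalyse the same last step and belong to unrelated protein families. Dgat1 (ENSMUSG00000022555, chromosome 15, 76502015 to 76511951, minus strand) measured 30.6, 29.8 and 26.0 TPM in normoxic and 23.5, 24.6 and 24.6 TPM in hypoxia-treated libraries. Dgat2 (ENSMUSG00000030747, chromosome 7, 99153663 to 99182713, minus strand) measured 10.5, 10.0 and 11.4 TPM in normoxic and 7.42, 9.58 and 7.92 TPM in hypoxia-treated libraries. Neither gene's groups overlapped, though hypoxia-treated library 2 came close to the normoxic values of Dgat2. Dgat1 fell by 0.24 on the log2 scale (95% interval -0.42 to -0.06, adjusted p = 0.0338 from limma). Dgat2 fell by 0.33 (95% interval -0.59 to -0.07, adjusted p = 0.0371 from limma).

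Both DGAT calls sit near the threshold. Dgat1 lost its call in the absence of normoxic library 1 or 2 or of any hypoxia-treated library (adjusted p 0.0635 to 0.103 from limma), and Dgat2 in the absence of any normoxic library or of hypoxia-treated library 1 or 3 (adjusted p 0.0556 to 0.109 from limma). Under median-ratio scaling the adjusted p was 0.309 for Dgat1 and 0.157 for Dgat2 (limma). With the assembled locus in place of the annotated gene, Dgat1 had an adjusted p of 0.285 (limma). The Dgat1 share of the summed TPM of both genes was 72.9 ± 2.93% in normoxic and 74.5 ± 2.19% in hypoxia-treated cells (SD, n = 3), with overlapping libraries.

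Cpt1a, which encodes the enzyme of the mitochondrial outer membrane that commits long-chain fatty acids to oxidation, fell. The gene (ENSMUSG00000024900, chromosome 19, 3323301 to 3385732, plus strand) measured 98.6, 90.5 and 91.0 TPM in normoxic and 59.3, 63.8 and 61.6 TPM in hypoxia-treated libraries. The groups stood well apart. The mean was 1.52-fold lower in hypoxia, with a log2 fold change of -0.59 (95% interval -0.72 to -0.46, adjusted p = 0.000168 from limma). Fabp3, the fatty acid carrier of heart muscle (ENSMUSG00000028773, chromosome 4, 130308595 to 130315463, plus strand), measured 0.0878, 0.154 and 0.146 TPM in normoxic libraries, 0.268 TPM in hypoxia-treated library 2 and 0 in hypoxia-treated libraries 1 and 3. It was too low to be tested, and part of its exon sequence is shared with Zcchc17 on the opposite strand.

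By annotated TPM, the order of the levels changed with oxygen. In normoxic cells it ran from Plin3 (110 ± 3.24 TPM) over Cpt1a, Plin2, Pnpla2, Dgat1, Hilpda, Dgat2, G0s2 and Plin4 to Fabp3. In hypoxia-treated cells Plin2 stood above Cpt1a, Hilpda above Pnpla2 and Dgat1, and Plin4 above G0s2. The TPM ranges of neighbours overlapped for Dgat1 with Hilpda in normoxia and for Pnpla2 with Dgat1 in hypoxia, and all other neighbours were separate in their 3 libraries. By mean coverage in hypoxia, Plin2 stood below Cpt1a (16.2 and 24.1 per aligned gigabase). Hilpda stood above Pnpla2 and Dgat1 (14.2, 7.03 and 7.27), and Plin4 above G0s2. By mean coverage in normoxia, Hilpda stood below Dgat2 (3.45 and 4.32 per aligned gigabase), unlike by TPM. The assembled Hilpda locus in hypoxia-treated library 1, at 22.1 TPM, was below annotated Pnpla2 and Dgat1 (25.8 and 23.5 TPM).

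The typical gene was lower in hypoxia on the TPM scale, with a median log2 fold change of -0.13, which either rescaling (median-ratio or quantile) brought to 0.00. Measured from that median, the TPM differences were 0.81 for Hilpda, 0.32 for Plin2, 0.11 for Plin3, -0.10 for Dgat1, -0.20 for Dgat2, -0.25 for Plin4, -0.40 for Pnpla2, -0.46 for Cpt1a and -0.99 for G0s2. Hilpda, Pnpla2, G0s2 and Cpt1a kept their direction and call under these scalings. Over all genes, the share of calls that were higher was 33.1% by TPM, 49.9% after median-ratio scaling, 49.6% after quantile normalization.

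**Figure D4:**
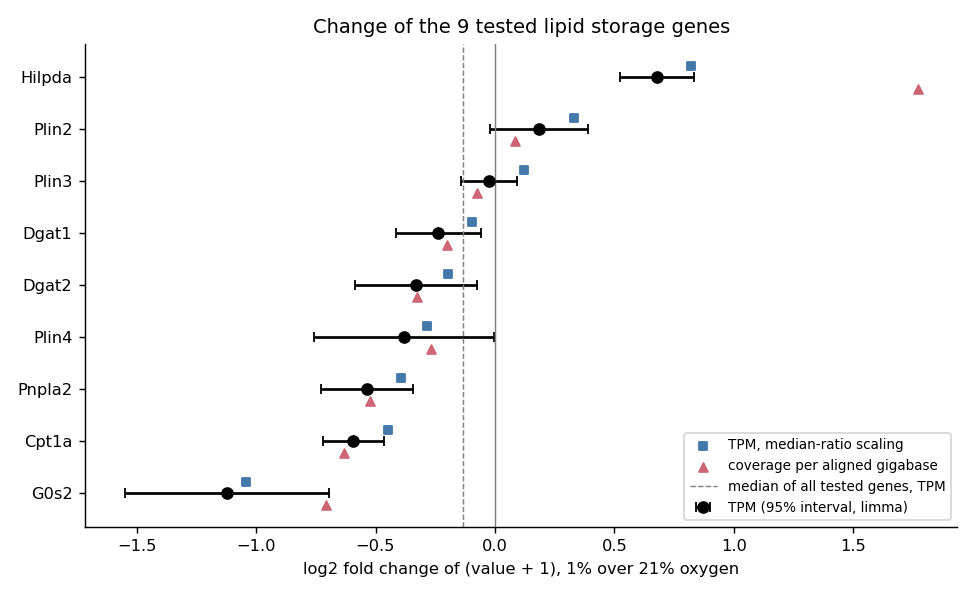
Log2 fold change of the 9 tested genes, hypoxia over normoxia, with 1 added to each value; black points are TPM with the 95% interval from limma, squares are TPM with median-ratio scaling, triangles are coverage per aligned gigabase, and the dashed line is the median of all tested genes at -0.13. Hilpda lies at 0.68 by TPM and 1.77 by coverage, the 5 called lower lie between -1.12 and -0.24 by TPM, and Plin3 lies at -0.03 by TPM and at 0.12 with median-ratio scaling; the added 1 weighs more on coverage, whose values are smaller.

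The genes whose profiles over the 6 libraries lay nearest to Hilpda, by Euclidean distance of log2(TPM + 1) from the normoxic mean, were Cdc25b (distance 0.0787), Hpse, Hltf, Map2k1 and Slc15a4. This nearness holds for annotated TPM. On coverage per aligned gigabase the log2 fold change was 1.77 for Hilpda and between 0.48 and 0.68 for these 5 genes. Cdc25b, a phosphatase gene of the cell cycle, went from 87.0 ± 6.26 to 140 ± 1.21 TPM (SD, n = 3), and shares exon bases with Spef1 on the other strand. Nearest to Plin2 were Gm37893 (distance 0.0695), Prkd1, Pex6, Ntn4 and Prn, and none of these 5 was called. Prn shares exons with Prnp and Prnd, and its value is uncertain.

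The wider pathway was read from 7 lists that hold 150 other genes of lipid storage, of which 111 were tested. Of those, 20 were higher (18.0%) and 45 lower (40.5%), beside 17.9% and 36.1% of all genes, and their median log2 fold change was -0.15. Neither share was far from that of all genes.

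Among 14 tested genes of droplet proteins other than perilipins, none was higher and 5 were lower (median -0.18), while with median-ratio scaling 2 were higher and 3 lower, and with quantile normalization 3 were higher. Without normoxic library 1 or 3 or hypoxia-treated library 1 or 2 the number lower was 3, and on coverage it was 9. On coverage, 6371 of all 13749 tested genes were lower, beside 4967 by TPM. In the absence of normoxic library 1 or 3 or of hypoxia-treated library 2, 1 gene was higher. Fitm2, whose product is needed for droplets to bud from the endoplasmic reticulum, fell from 12.3 ± 0.911 to 6.35 ± 0.122 TPM (SD, n = 3; log2 fold change -0.85, adjusted p = 0.000215 from limma), and it shares exon bases with a gene on the other strand. Hsd17b11, a droplet-bound dehydrogenase, fell from 40.8 ± 4.93 to 25.3 ± 2.91 TPM, and Spast, the microtubule-severing spastin, from 31.9 ± 0.649 to 23.7 ± 1.26 TPM (SD, n = 3).

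Lipolysis was represented by 6 tested genes besides Pnpla2, of which none was higher and 4 were lower (median -0.27), which became 2 lower under median-ratio scaling and 1 lower after quantile normalization. Without normoxic library 3, 1 gene was higher. Lipe, the hormone-sensitive lipase that acts after ATGL, fell from 5.68 ± 0.592 to 3.51 ± 0.663 TPM (SD, n = 3), shares exon bases with a gene on the other strand and lost its call with quantile normalization (adjusted p = 0.059 from limma). Lipa, the lysosomal acid lipase, fell from 65.2 ± 3.05 to 54.4 ± 2.19 TPM (SD, n = 3) and lost its call with median-ratio scaling (adjusted p = 0.0763 from limma). Ddhd2, a triglyceride hydrolase of neurons, fell from 15.7 ± 0.303 to 11.9 ± 0.855 TPM (SD, n = 3) and lost its call with quantile normalization (adjusted p = 0.095 from limma).

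The 17 tested genes of triglyceride and sterol ester synthesis moved both ways, with 5 higher and 5 lower (median -0.03), and 3 lower with quantile normalization. Of the 5 higher, Soat2 (mean 0.818 TPM in normoxia and 2.57 TPM in hypoxia) passed the filter only through its hypoxic values. With the filter at a mean of 5 TPM, 4 were higher and 6 lower. Lpin1, the phosphatidate phosphatase that supplies diacylglycerol to the DGAT enzymes, measured 14.6, 13.7 and 14.2 TPM in normoxic and 36.0, 34.9 and 34.2 TPM in hypoxia-treated libraries (log2 fold change 1.25, adjusted p = 1.17e-05 from limma). Its paralog Lpin2 rose from 6.91 ± 0.0248 to 9.45 ± 0.569 TPM (SD, n = 3). Soat1, which esterifies cholesterol for storage in droplets, measured 26.1, 27.4 and 28.2 TPM in normoxic and 55.8, 60.2 and 75.4 TPM in hypoxia-treated libraries (log2 fold change 1.19, adjusted p = 0.00018 from limma). Gpd1l, a paralog of the enzyme that makes glycerol 3-phosphate, fell from 17.4 ± 0.628 to 8.22 ± 0.489 TPM, Gpat4, an acyltransferase of the first step, from 38.1 ± 0.949 to 27.4 ± 2.40 TPM, and Lclat1, a lysocardiolipin acyltransferase, from 47.8 ± 6.33 to 34.9 ± 0.480 TPM (SD, n = 3).

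For fatty acid uptake, binding and activation, 14 genes were tested and 5 were higher and 5 lower (median 0.09), and 3 were lower with median-ratio scaling. The lipoprotein receptor gene Vldlr measured 20.2, 27.4 and 18.0 TPM in normoxic and 72.5, 66.5 and 73.8 TPM in hypoxia-treated libraries (log2 fold change 1.67, adjusted p = 0.000135 from limma). The transporter gene Slc27a1 rose from 62.8 ± 3.22 to 95.1 ± 4.35 TPM (SD, n = 3). The acyl-CoA synthetase genes Acsl5 and Acsl4 fell, from 80.8 ± 2.77 to 48.9 ± 1.35 TPM and from 74.8 ± 2.42 to 60.1 ± 2.24 TPM (SD, n = 3). Fabp5, a relative of Fabp3 and the fatty acid binding protein of that family that passed the filter, fell from 128 ± 0.665 to 108 ± 3.65 TPM (SD, n = 3), a call lost with median-ratio scaling (adjusted p = 0.115 from limma). Cd36 and Fabp4 were below the filter.

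The list of mitochondrial fatty acid oxidation also holds the CPT1 isoform genes Cpt1b and Cpt1c. All 26 genes were tested, and 14 were lower and 1 higher (53.8% lower, median -0.31). With either scaling 3 were higher and 11 lower. The acyl-CoA dehydrogenase gene Acadm fell from 141 ± 1.15 to 93.0 ± 1.38 TPM (SD, n = 3; log2 fold change -0.59, adjusted p = 3.75e-05 from limma). Acadvl, which acts on very long chains, fell from 173 ± 2.57 to 121 ± 4.52 TPM, and Etfb, a subunit of the electron carrier of these enzymes, from 68.0 ± 1.98 to 38.0 ± 2.87 TPM (SD, n = 3); both share exon bases with another gene, Acadvl with Dvl2 on the other strand. The exception in direction was Acot13, a thioesterase that releases fatty acids from coenzyme A, which rose from 89.1 ± 2.24 to 141 ± 1.78 TPM (SD, n = 3).

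Fatty acid synthesis had 21 tested genes, 4 higher and 7 lower (median -0.06), while with median-ratio scaling 7 were higher and 4 lower. By FPKM, without mitochondrially encoded genes and on coverage, 11 were lower in each case. Over all genes, 5624 of 13749, 5589 of 13712 and 6371 of 13749 were lower in these settings, beside 4967 by TPM. The desaturase gene Scd2, at 1557 ± 34.1 TPM in normoxia and 2413 ± 10.9 TPM in hypoxia, rose, and it overlaps the microRNA gene Mir5114 on the same strand, which makes its value uncertain. Fads1, a desaturase of polyunsaturated fatty acids, rose from 353 ± 4.23 to 430 ± 3.32 TPM (SD, n = 3), and Acss2, which makes acetyl-CoA from acetate, from 25.1 ± 1.81 to 37.1 ± 3.76 TPM (SD, n = 3), with exon bases shared with genes on the other strand. The chain elongation genes Hacd3, Elovl6 and Hacd2 fell, with log2 fold changes of -1.05, -0.77 and -0.64.

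Among 13 tested transcription factors and coregulators of lipid genes, 5 were higher and 5 lower (median -0.07). Of the 5 lower, Ppargc1a (mean 1.72 TPM in normoxia and 0.665 TPM in hypoxia) passed the filter only through its normoxic values. With the filter at a mean of 5 TPM, 5 were higher and 4 lower. Srebf2, the regulator of sterol synthesis and uptake, rose from 192 ± 8.64 to 276 ± 5.46 TPM, Ppard, a nuclear receptor for fatty acids, from 26.1 ± 0.906 to 35.6 ± 1.45 TPM, and Arnt, the partner subunit of the HIFs, from 54.9 ± 2.07 to 73.1 ± 1.10 TPM (SD, n = 3). Hif1a mRNA fell from 107 ± 3.00 to 70.9 ± 5.51 TPM, Rxra, the partner of the PPARs, from 15.9 ± 0.544 to 8.74 ± 0.703 TPM, and the lysosomal regulator Tfeb from 10.6 ± 0.463 to 7.20 ± 0.325 TPM (SD, n = 3). The paper reports a rise of the Hif1a protein in hypoxia-treated cells, which these mRNA values do not measure. Tfeb lost its call on coverage (adjusted p = 0.141 from limma), and Hif1a shares exon bases with a gene on the other strand. Ppara and Epas1 were below the filter.

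**Figure D5:**
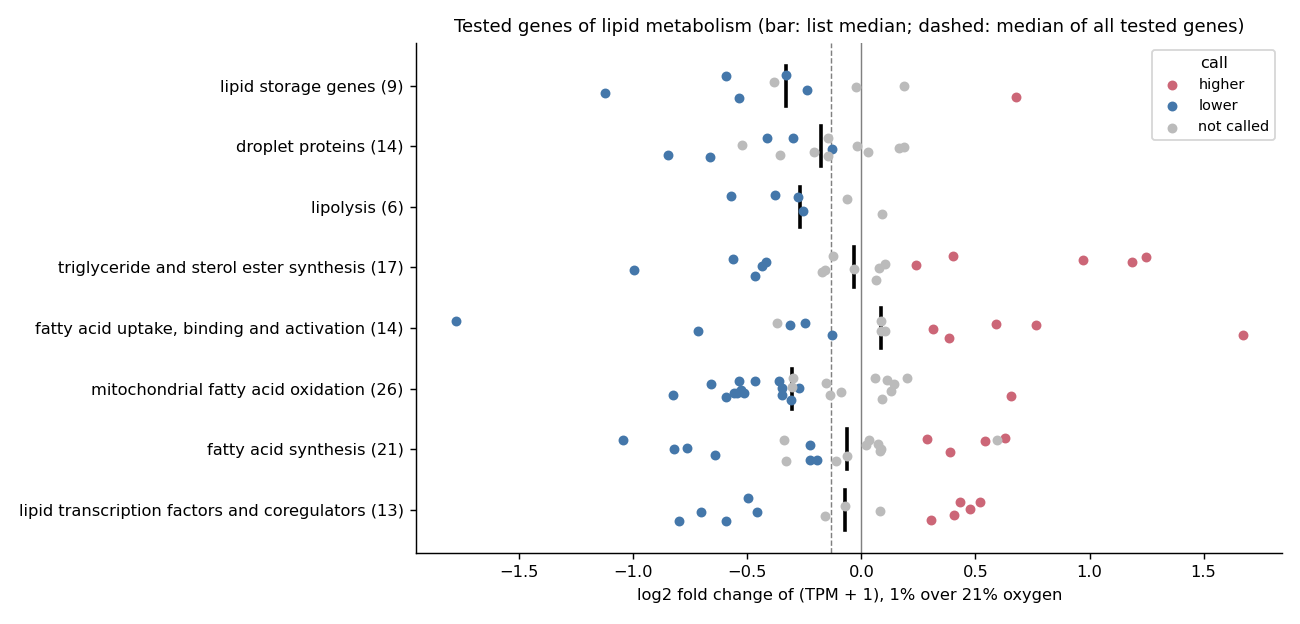
Log2 fold change of (TPM + 1), hypoxia over normoxia, of every tested gene in the 10-gene set and in the 7 lists, with the number tested in brackets; points are genes coloured by call, short bars are list medians and the dashed line is the median of all tested genes at -0.13. Medians run from -0.33 for the lipid storage genes to 0.09 for fatty acid uptake, and the oxidation list holds 14 lower genes and 1 higher.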

How the data were processed

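Poly(A) RNA was sequenced by the authors as read pairs on an Illumina NovaSeq. Their processing used Cutadapt for trimming, HISAT2 for alignment (genome build mm10) and StringTie for quantification. Versions, the annotation release and the use of strand are not given in the sources used here. The deposited signal is coverage (mean read depth over a gene). The deposited FPKM is scaled for length and aligned fragments. The deposited TPM column holds 2 kinds of row, annotated genes and assembled loci, of which the latter sum to 1000000 in each library. The annotated genes, which were used without rescaling, sum to 948283.6 to 981417.5.

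Of 43432 gene IDs, 42462 matched a symbol of GENCODE mouse release 21 and 970 kept their ID; TPM was summed per symbol, giving 43412 genes. Exon overlaps come from that release and may differ from the authors' annotation. Genes with a mean of at least 1 TPM (13749) entered limma 3.58.1 (R 4.3.3) as log2(TPM + 1) (variance trend, 2-sided, Benjamini-Hochberg, threshold 0.05), in place of the authors' edgeR, since the files hold no counts. The procedure was run on simulated data with far fewer changed genes than were called here, so that run does not vouch for these calls. The design had expected a single kind of row. Precision is limited by 3 libraries per group, and depth was 5.75 to 6.72 aligned gigabases.

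The 10 members and all lists were chosen with earlier results of these data known. Named list genes are up to 3 called per list and direction with the smallest adjusted p, plus the 5 profiles nearest to Hilpda and to Plin2. Soat2 and Ppargc1a are named beyond this rule, since they passed the filter only through 1 group. The values of 1 gene that this rule names are not reported here. Alternatives were another pseudocount and filter, FPKM, 2 scalings, removal of mitochondrially encoded genes, no variance trend, a replicate block and each library left out; coverage and the assembled locus were added after the data were seen. Replicate numbers did not pair the libraries: deviations of same-numbered libraries correlated at 0.0259, 0.0333 and 0.0109.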

Additional observations from a re-analysis of the deposited data

How the results depend on the processing

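The number of tested members called higher was 1, and became 3 under median-ratio scaling and 2 under quantile normalization. Over all 13749 genes, 2463 were higher and 4967 lower. These became 3603 and 3622 under median-ratio scaling, and 3575 and 3639 under quantile normalization. The number of all genes lower was 6371 on coverage, 5624 by FPKM and 4841 without the variance trend. Without mitochondrially encoded genes it was 5589 of 13712. The number of members called lower was 5, and became 3 with no filter on low values, under both scalings (median-ratio and quantile) and with the replicate block, and 3 to 4 with each library left out in turn. In each of these it was Dgat1, Dgat2 or both that were lost. With the filter at a mean of 5 TPM it was 4, since G0s2 was then not tested. Without the variance trend and on coverage it was 6, with Plin4 added. The replicate block left 2281 genes higher and 4674 lower, against 2463 and 4967 without it, and made 1 droplet protein gene higher. Plin3 turned from -0.03 to 0.12 (median-ratio) and 0.028 (quantile), and ranged from -0.0614 to 0.0005 with each library left out. The counts of the other lipid genes stayed within 1.5 times, at 18 to 30 higher and 32 to 60 lower. Hilpda, Pnpla2, G0s2 and Cpt1a kept direction and call under every alternative that gave them a value, except Hilpda on the assembled locus (0.16). A fold change of a gene below a few TPM, such as G0s2 or Plin4, is understated by the added 1 TPM.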
